A study of Rattus norvegicus with 20 samples.

Results

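Tfpi2 and 7 other regulators of plasmin or coagulation (Tfpi, Serpine2, F3, Thbd, Plat, Plau and Plaur) were followed on 20 single-colour Agilent arrays of neonatal rat heart cultures. Every probe other than a control spot was taken whose gene name, with the ending _predicted removed, was one of these 8 symbols, which gave 10 of 41012 probes. Tfpi2 was chosen on its levels on these same arrays, for being high at 6 h and low again at 24 h, so its levels against untreated cultures and between the times are given as a description with no test. The other 7 genes were chosen as its pathway. Of the 8 genes, 7 were among the 27743 genes that passed the filter on dim probes and entered the fit, and Plau did not pass.

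RNA came from primary cultures of neonatal rat heart tissue that had grown for 1 day. The 7 groups were untreated cultures (2 arrays) and cultures given celecoxib, an inhibitor of cyclo-oxygenase 2, at reference concentrations of 1, 1/5 or 1/25 for 6 h or for 24 h (3 arrays each). The absolute concentration behind these ratios is not given in the sources used here, the untreated arrays carry neither a time nor a vehicle, and the design text speaks of 3 replicates per group where 2 untreated arrays were analysed here. The labels call the cells cardiomyocytes and do not say whether replicate arrays came from separate cultures, so p-values measure only the spread between these arrays, which may be technical.

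Coagulation starts when tissue factor (F3) on a cell surface binds factor VII, and Tfpi blocks that complex together with activated factor X. Plasmin, the protease that dissolves fibrin and cleaves matrix proteins, is made from plasminogen by Plat (tissue-type activator) or by Plau (urokinase) bound to its receptor Plaur. Tfpi2 shares the Kunitz-type domains of Tfpi but acts mainly on plasmin and related proteases in the extracellular matrix, and Serpine2 (protease nexin) traps thrombin, urokinase and plasmin. Thbd (thrombomodulin) binds thrombin and turns it toward activating protein C.

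Levels are given on a log2 scale relative to the 75th percentile of the processed signals of the same array, so a level of 0 equals that percentile. Levels of different probes are not set against each other. The 20 arrays lay on 6 slides scanned on 2 days. All 6 arrays of scan day 2 were 6 h arrays: replicate 3 at concentration 1, all 3 at 1/5, and replicates 2 and 3 at 1/25. The other 14 arrays, including all untreated and 24 h arrays, were scanned on day 1, so at 1/5 the time and the scan day cannot be told apart from those arrays alone, and a block for scan day takes the day's difference from concentrations 1 and 1/25. With the groups held constant, day 2 read 0.07 lower than day 1 at the median of 31725 probes, and 25.2% of probes differed by more than 1 on the log2 scale in either direction. The main results that rest on the 6 h arrays are therefore given with and without scan day as a block in the fit. Between 63.5% and 83.1% of the probes on an array were well above background, and the number of arrays limits the precision.

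Markers of several cell types were present. All 10 cardiomyocyte markers (Myh6, Tnnt2, Actn2 and others) and all 10 fibroblast markers (Col1a1, Dcn, Pdgfra and others) passed the filter. Of the markers of endothelium, a usual site of Thbd and Tfpi, Tek, Tie1, Emcn and Vwf did not pass, and neither did Pf4 and Itga2b of the platelet list, Itgam of the macrophage list, Acta2 of the smooth muscle list, or Hba-a1, Hba-a2 and Hbb of the erythroid list. On the linear scale, relative to the 75th percentile, the summed level of the fibroblast list was 20.3 to 20.5 in untreated cultures, 24.7 to 28.5 on the 6 h arrays of day 1, 16.4 to 20.6 on those of day 2, and 18.1 to 27.7 at 24 h. The cardiomyocyte sum over the same 4 sets of arrays was 24.6 to 25.6, 31.0 to 43.9, 16.6 to 38.0 and 18.2 to 40.7. The sum of 5 endothelial markers was 7.94 to 8.30, 9.32 to 10.5, 6.50 to 7.81 and 8.07 to 9.73, and that of 9 macrophage markers 10.8 to 11.6, 10.8 to 13.8, 8.5 to 10.01 and 11.04 to 14.9. The sum of 7 smooth muscle markers was 8.41 to 10.4, 10.3 to 12.4, 6.34 to 9.74 and 8.46 to 12.3. The sum of 3 platelet markers was 3.1 to 3.23, 1.61 to 1.74, 2.27 to 3.67 and 1.76 to 3.98. The 1 erythroid marker that passed, Alas2, had levels of 0.204 to 0.722, 0.109 to 0.228, 0.15 to 0.402 and 0.199 to 0.245. The endothelial and macrophage sums were thus lower on all 6 arrays of day 2 than on any array of day 1, and the part of these lists in the results was not tested.

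Tfpi2 was high on all 9 arrays of 6 h and low on all 11 other arrays. The gene was read by 1 probe, shown because the pattern rests on it alone. In the array design, whose file headers name rat build rn3, the probe lies at chr4:28825607-28825666 on the minus strand, and the exon it falls in was not looked up for that build. It was well above background on all 20 arrays and saturated on none.
Tfpi2 probe: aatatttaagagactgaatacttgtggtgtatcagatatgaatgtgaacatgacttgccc

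In untreated cultures the Tfpi2 level was -4.44 and -3.72. At 6 h it was -0.85, -1.28 and -0.94 at concentration 1, and -1.04, -1.12 and -1.08 at 1/5. At 1/25 for 6 h it was -0.10, -1.07 and -0.03. All 6 h arrays thus lay above both untreated arrays, and the 3 arrays of 6 h from scan day 1 (-1.28 to -0.10) spanned the same range as the 6 from day 2 (-1.12 to -0.03). At 24 h the level was -3.99, -4.34 and -3.31 at concentration 1, -2.72, -3.89 and -2.85 at 1/5, and -4.55, -3.50 and -3.38 at 1/25. The 24 h arrays overlapped the untreated ones at every concentration and did not overlap the 6 h arrays.

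On the linear scale the mean Tfpi2 level was 0.0609 ± 0.0212 of the 75th percentile (SD, n = 2) in untreated cultures. It was 0.496 ± 0.0754 at concentration 1, 0.473 ± 0.0134 at 1/5 and 0.796 ± 0.277 at 1/25 after 6 h (SD, n = 3 each). After 24 h it was 0.0710 ± 0.0264, 0.119 ± 0.0451 and 0.0756 ± 0.0288 in the same order. From low to high, the group means on the log2 scale ran from untreated (-4.08) over concentration 1 (-3.88), 1/25 (-3.81) and 1/5 (-3.15) at 24 h to 1/5 (-1.08), 1 (-1.02) and 1/25 (-0.40) at 6 h. Within a time, the steps from -3.81 to -3.15 at 24 h and from -1.02 to -0.40 at 6 h were larger than the pooled SD of 0.50 between arrays of a group. The other steps within a time were smaller than it. The step between the 24 h and the 6 h groups was the only one larger than the whole range within any group.

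**Figure D1:**
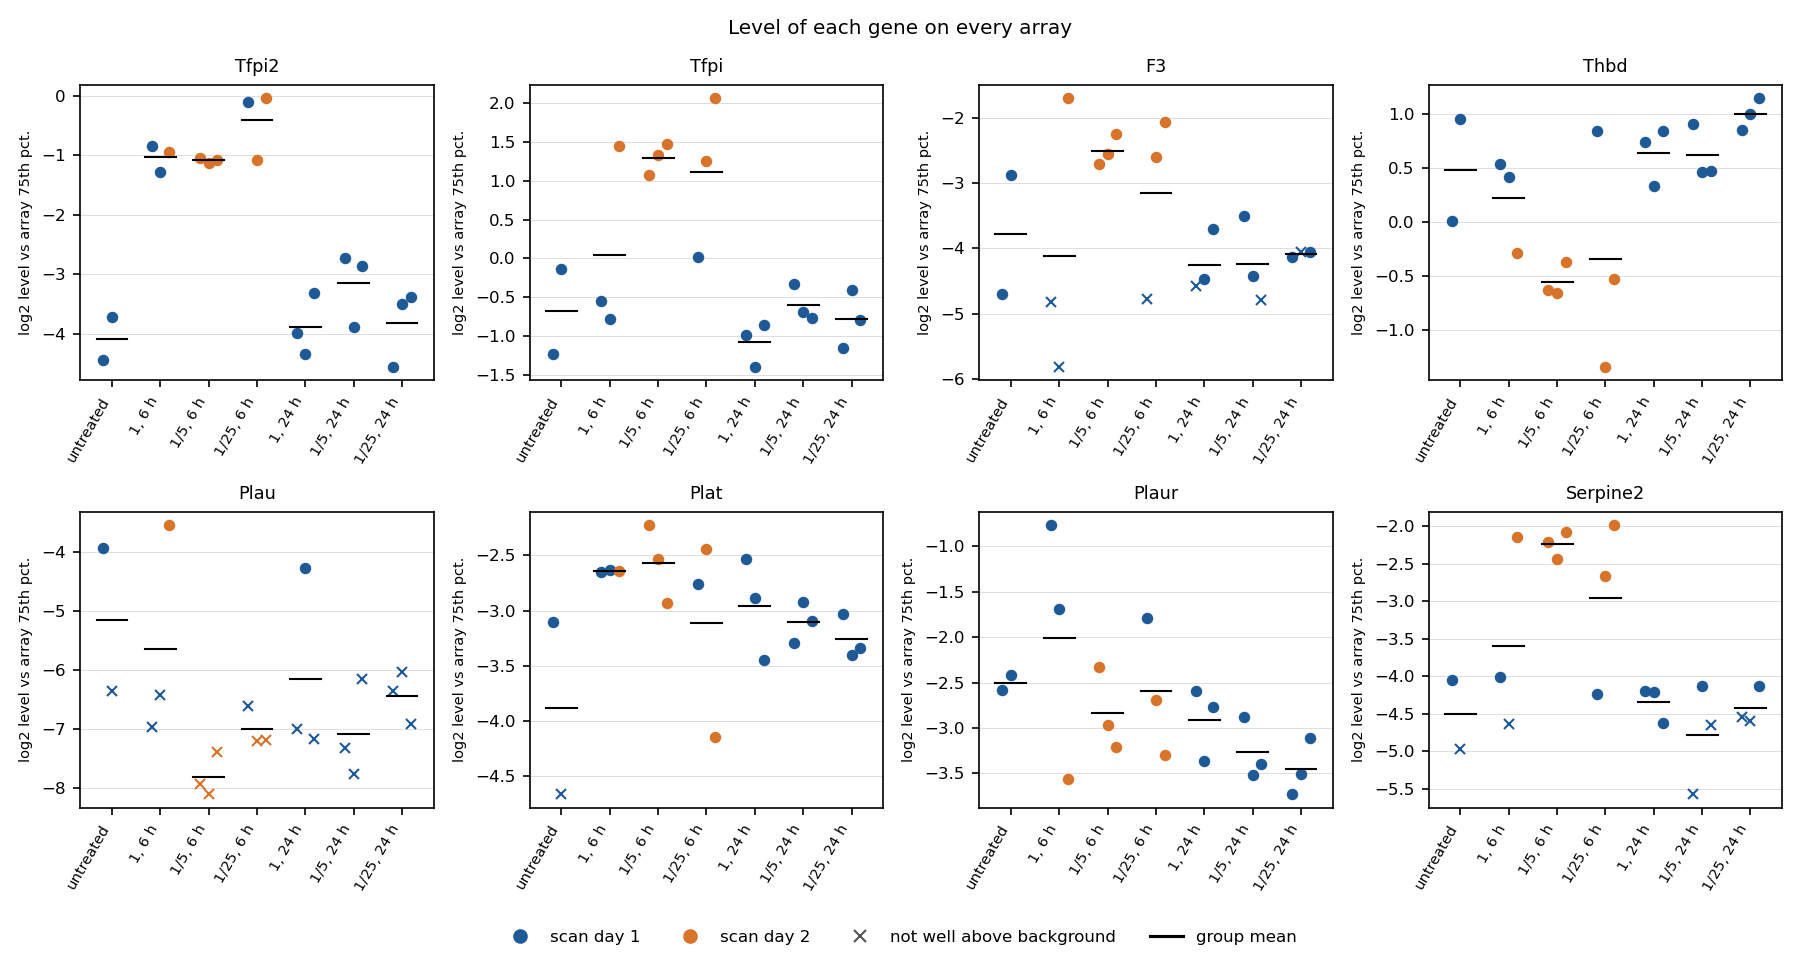
Level of each of the 8 genes on all 20 arrays (log2 of the signal relative to the array's 75th percentile, vertical axis) by group (celecoxib concentration and time, horizontal axis), with scan day 1 in blue, scan day 2 in orange, crosses for arrays not well above background and lines for group means. Tfpi2 sits between -1.28 and -0.03 on the 6 h arrays of both scan days and between -4.55 and -2.72 elsewhere, whereas the probes shown for Tfpi, Serpine2 and F3 are high on the orange points only.

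As fold changes, Tfpi2 at 6 h was 8.34 times the untreated level at concentration 1 (log2 difference 3.06 ± 0.44, SE), 8.02 times at 1/5 (3.00 ± 0.44) and 12.8 times at 1/25 (3.68 ± 0.44). In the fit with scan day as a block these differences were 3.11, 3.16 and 3.79, and within scan day 1 they were 3.02 at concentration 1 (2 treated arrays) and 3.98 at 1/25 (1 treated array). At 24 h the differences from untreated were 0.20, 0.93 and 0.27 (each ± 0.44) at 1, 1/5 and 1/25. From 6 h to 24 h the level was lower by a log2 difference of -2.86 at concentration 1, -2.07 at 1/5 and -3.41 at 1/25 (each ± 0.40), which is 7.24, 4.21 and 10.6 times lower. The mean over the concentrations was -2.78 ± 0.23, and -2.89 ± 0.36 with scan day as a block. The 2 untreated arrays are common to the 6 comparisons with untreated cultures. In cultures of several cell types, fewer cells of a type and less RNA per cell cannot be told apart.

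Concentration is the comparison on which Tfpi2 was not chosen. At 6 h Tfpi2 at concentration 1 differed from 1/25 by -0.62 ± 0.40 on the log2 scale (95% interval -1.46 to 0.21, limma adjusted p = 0.799), and the 3 arrays of each group overlapped. At 24 h the difference was -0.07 ± 0.40 (95% interval -0.90 to 0.77, adjusted p = 1.00). The difference at 6 h was -0.68 with scan day as a block, -0.97 within day 1 and -0.39 within day 2. Of all genes tested 0% passed at 6 h (0 of 27741 by limma, 1749 at an unadjusted p under 0.05) and 0% at 24 h (0 of 27741, 816 unadjusted), and none of the 7 members passed at either time. Among the other members the differences at 6 h ran from -1.08 for Tfpi (95% interval -2.19 to 0.03) to 0.58 for Plaur (-0.53 to 1.70). Of the 3 arrays of each group, 1 at concentration 1 and 2 at 1/25 were scanned on day 2, and with the day as a block the differences lay between -0.45 for Tfpi and 0.39 for Plat, with Plaur at -0.01 and F3 at 0.05 in place of -0.96. At 24 h they ran from -0.36 for Thbd (-1.24 to 0.52) to 0.54 for Plaur (-0.58 to 1.66).

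The promoter window of Tfpi2 (250 bases before to 50 after the start, from RefSeq, build GRCr8) is shown because the gene had the largest difference of the 7 fitted genes between 6 h and untreated at each concentration. Tfpi2 was chosen for its rise at 6 h, so this rank follows from the choice and is no finding. It lies at chr4:32941227-32941526 on the minus strand. The capitals mark an AP-1 motif, searched as TGANTCA, which reads the same on both strands apart from N; the match, TGAATCA, starts 80 bases upstream of the start. Promoters were found for 5 of the 8 genes (Tfpi2, Tfpi, with 2 windows, Plau, Plaur and Serpine2), and Plaur was the only other one with this motif. Its window lies at chr1:89181113-89181412 on the plus strand, with TGACTCA starting 83 bases upstream. Of 33469 rat promoter windows of 300 bases, 7.33% hold the motif.
Tfpi2 promoter: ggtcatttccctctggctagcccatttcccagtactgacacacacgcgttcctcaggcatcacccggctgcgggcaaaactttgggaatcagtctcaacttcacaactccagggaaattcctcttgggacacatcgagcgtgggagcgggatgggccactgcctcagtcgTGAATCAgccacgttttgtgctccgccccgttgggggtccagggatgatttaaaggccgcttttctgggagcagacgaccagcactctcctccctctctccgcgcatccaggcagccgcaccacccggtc
Plaur promoter: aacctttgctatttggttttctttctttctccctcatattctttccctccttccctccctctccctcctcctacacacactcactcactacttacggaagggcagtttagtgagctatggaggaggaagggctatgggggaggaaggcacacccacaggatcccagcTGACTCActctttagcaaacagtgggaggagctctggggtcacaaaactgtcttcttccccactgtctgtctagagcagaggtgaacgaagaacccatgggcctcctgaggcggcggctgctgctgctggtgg

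The other motifs were searched on both strands. The SP1 motif GGGCGG, found in 33.1% of all windows, had 1 match in the Tfpi2 window, 1 in the second Tfpi window, 3 in the Plau window and 6 in the Serpine2 window. The TATA box TATAAA (14.2% of windows) and the CRE motif TGACGTCA (1.83%) had none in these 6 windows. These matches are descriptions of the letters and not sites.

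Tfpi, the inhibitor of the tissue factor complex, had 2 probes, and they did not move together. Both are shown because the result depends on which is used. Probe 1, the brighter, lies at chr3:67550903-67550962 and probe 2 at chr3:67558949-67559008 (minus strand, rn3), and 17 and 21 of their 60 bases are G or C.
Tfpi probe 1: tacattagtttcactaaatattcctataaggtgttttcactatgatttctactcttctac
Tfpi probe 2: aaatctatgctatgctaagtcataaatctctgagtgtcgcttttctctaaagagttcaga

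Tfpi probe 1 read -1.23 and -0.13 in untreated cultures. The 6 h arrays read -0.55, -0.78 and 1.45 at concentration 1, 1.08, 1.34 and 1.47 at 1/5, and 0.02, 1.26 and 2.07 at 1/25. At 24 h all 9 arrays lay between -1.40 and -0.34 (median -0.79). The 6 high arrays, at 1.08 or above, were the 6 of scan day 2, and the 3 arrays of 6 h from day 1 (-0.78 to 0.02) overlapped the untreated and the 24 h arrays. By this probe Tfpi fell from 6 h to 24 h, with differences of -1.89 ± 0.53 at 1/5 (limma adjusted p = 0.0490) and -1.64 ± 0.30 (3.11 times) over the mean of the concentrations (adjusted p = 0.00207). Of all genes, 4.89% passed the first comparison and 20.3% the second. The call at 1/5 was lost when any 1 of its 6 arrays was left out (adjusted p 0.110 to 0.149). Blocking by scan day gave a mean difference of -0.39 ± 0.28 (adjusted p = 0.434), and within day 1 it was -0.42 at concentration 1 and -0.81 at 1/25 (adjusted p 0.605 and 0.296).

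Tfpi probe 2 read -3.20 and -2.90 in untreated cultures, between -4.11 and -2.64 at 6 h (median -3.62), and between -3.78 and -2.03 at 24 h (median -3.00). Its 6 h arrays of day 1 (-4.11 to -3.66) and of day 2 (-4.06 to -2.64) overlapped. For this probe the mean difference between 24 h and 6 h was 0.50 ± 0.18 (limma adjusted p = 0.0623), opposite in sign to probe 1, and 0.69 ± 0.28 with scan day as a block (adjusted p = 0.172). Against untreated, Tfpi passed in none of the 6 comparisons with either probe. By probe 1 the differences at 6 h were 0.72, 1.98 and 1.80 at 1, 1/5 and 1/25, and 0.10, 0.10 and 0.55 with the block.

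Serpine2, the inhibitor of thrombin, urokinase and plasmin, also had 2 probes, which passed in opposite directions between the times when no block was fitted. Probe 1 lies at chr9:79275281-79275340 and probe 2 at chr9:79297474-79297533 (minus strand, rn3), with 21 and 27 G or C bases.
Serpine2 probe 1: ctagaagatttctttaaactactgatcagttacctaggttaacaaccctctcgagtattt
Serpine2 probe 2: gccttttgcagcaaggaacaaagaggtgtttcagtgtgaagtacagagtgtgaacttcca

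Serpine2 probe 1 read -4.04 and -4.97 in untreated cultures. Its 6 h arrays read -4.01, -4.64 and -2.15 at concentration 1, -2.21, -2.44 and -2.08 at 1/5, and -4.24, -2.66 and -1.99 at 1/25. At 24 h it lay between -5.57 and -4.13 (median -4.54), and it was well above background on 14 of the 20 arrays. The 6 arrays at -2.66 or above were again those of scan day 2. By this probe Serpine2 rose by 2.26 ± 0.65 at 1/5 for 6 h over untreated (limma adjusted p = 0.0470), where 6.55% of all genes passed. From 6 h to 24 h it fell, with differences of -2.54 ± 0.58 at 1/5 (adjusted p = 0.0319) and -1.58 ± 0.34 over the mean of the concentrations (adjusted p = 0.00427). Both calls at 1/5 were lost when any 1 of their arrays was left out (adjusted p 0.0970 to 0.200 and 0.0762 to 0.119). Blocking by scan day gave 0.22, -0.49 and -0.22 for these 3 differences (adjusted p 0.837, 0.824 and 0.722).

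Serpine2 probe 2 read -3.37 and -3.68 in untreated cultures, between -5.57 and -4.51 on the 9 arrays of 6 h (median -4.81), and between -4.44 and -2.20 at 24 h (median -4.00). Its 6 h arrays lay below all 11 others on both scan days, at -5.15 to -4.64 on day 1 and -5.57 to -4.51 on day 2, and 5 of the 9 were well above background. By this probe Serpine2 was higher at 24 h than at 6 h by 1.18 ± 0.28 over the mean of the concentrations (limma adjusted p = 0.00764), and by 1.22 ± 0.45 with scan day as a block (adjusted p = 0.136). Against untreated it read -1.24, -1.55 and -1.47 at 1, 1/5 and 1/25 for 6 h (adjusted p 0.237, 0.0873 and 0.0918). No direction for Serpine2 is therefore common to its 2 probes.

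**Figure D2:**
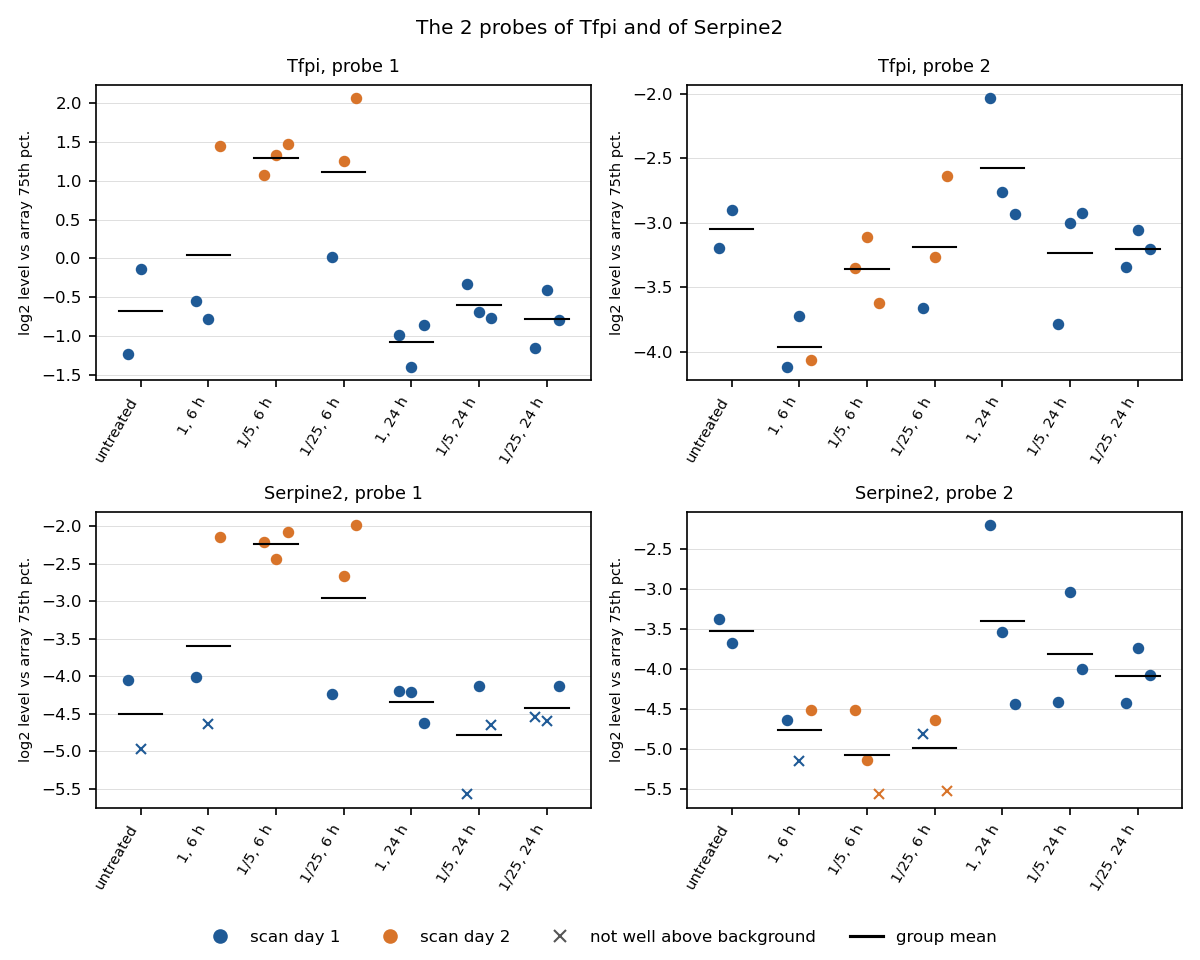
Level of the 2 probes of Tfpi (top) and of Serpine2 (bottom) on all 20 arrays (log2 relative to the array's 75th percentile, vertical axis) by group (horizontal axis), with scan day 1 in blue, scan day 2 in orange, crosses for arrays not well above background and lines for group means. Probe 1 of each gene is high on the 6 arrays of scan day 2, while probe 2 of Serpine2 lies between -5.57 and -4.51 on all 9 arrays of 6 h.

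F3, tissue factor, the cell-surface starter of coagulation, showed no call in any comparison. It read -4.70 and -2.87 in untreated cultures. At 6 h the level was -4.82, -5.81 and -1.70 at concentration 1, -2.72, -2.56 and -2.25 at 1/5, and -4.78, -2.60 and -2.07 at 1/25. At 24 h it lay between -4.80 and -3.50 (median -4.14). The 6 arrays of day 2 (-2.72 to -1.70) stood above all arrays of day 1, and the 3 arrays of 6 h from day 1 (-5.81 to -4.78) were not well above background. Over the mean of the concentrations the difference between 24 h and 6 h was -0.94 ± 0.47 (limma adjusted p = 0.170), and with scan day as a block it turned to 1.08 ± 0.41 (adjusted p = 0.144). Against untreated the differences at 6 h were -0.33, 1.28 and 0.64 at 1, 1/5 and 1/25, and -1.34, -1.75 and -1.38 with the block (adjusted p 0.114, 0.174 and 0.122). The probe's own difference between the days was 3.03, the largest of the 9 member probes kept.

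Thbd, the thrombin receptor through which protein C is activated, read 0.01 and 0.95 in untreated cultures. At 6 h it read 0.53, 0.42 and -0.29 at concentration 1, -0.63, -0.66 and -0.37 at 1/5, and 0.84, -1.34 and -0.53 at 1/25. At 24 h it lay between 0.33 and 1.15 (median 0.84). The 6 arrays below 0 were those of scan day 2, and the 6 h arrays of day 1 (0.42 to 0.84) lay inside the range of the 24 h arrays. Thbd was higher at 24 h than at 6 h by 0.97 ± 0.24 over the mean of the concentrations (limma adjusted p = 0.00980), the comparison that 20.3% of all genes passed. Blocking by scan day gave 0.13 ± 0.26 (adjusted p = 0.807), and within day 1 it was 0.16 at both concentration 1 and 1/25. In the 6 comparisons with untreated Thbd did not pass, with differences from -1.03 at 1/5 for 6 h to 0.52 at 1/25 for 24 h. At 6 h they were -0.26, -1.03 and -0.82 at 1, 1/5 and 1/25, and turned to 0.16, 0.23 and 0.02 with the block.

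Plat, tissue-type plasminogen activator, had 10 spots of 1 probe on each array, which spans chr16:73717667-73717812 on the minus strand in rn3. Untreated replicate 1 read -3.11 and untreated replicate 2 read -4.66, where none of the 10 spots was well above background. At 6 h it read -2.65, -2.64 and -2.64 at concentration 1, -2.23, -2.54 and -2.93 at 1/5, and -2.76, -2.44 and -4.15 at 1/25. At 24 h it lay between -3.45 and -2.54 (median -3.10). The spots of an array had SDs of 0.05 to 0.36, and the SD between the 2 untreated arrays was 1.10, against 0.53 pooled over the groups. Plat passed in none of the comparisons, its differences from untreated running from 0.62 ± 0.47 at 1/25 for 24 h to 1.32 ± 0.47 at 1/5 for 6 h (limma adjusted p 0.695 and 0.0931). With the block the 6 h differences were 1.33, 1.59 and 0.95 at 1, 1/5 and 1/25 (adjusted p 0.0947, 0.183 and 0.233). Quantile normalization brought all 3 comparisons of 6 h with untreated past the threshold, at 1.70, 1.64 and 1.38 for 1, 1/5 and 1/25 (adjusted p 0.0298, 0.0110 and 0.0268), against 1.24, 1.32 and 0.77 without it. Of all genes 266, 3511 and 2235 then passed, against 119, 1817 and 1662 without it.
Plat probe: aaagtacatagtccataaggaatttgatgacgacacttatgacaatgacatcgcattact

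Plau, urokinase, was well above background on 3 arrays only. These were untreated replicate 1 (-3.93), concentration 1 for 6 h replicate 3 (-3.55) and concentration 1 for 24 h replicate 2 (-4.26). The other 17 arrays read between -8.10 and -6.03 and were not well above background, so no fold is given. Its probe did not enter the fit, and without the filter Plau passed in none of the comparisons (smallest limma adjusted p 0.102).

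Plaur, the receptor that holds urokinase at the cell surface, was high at 6 h on the arrays of scan day 1 only. Its probe lies at chr1:79791146-79791205 on the plus strand in rn3.
Plaur probe: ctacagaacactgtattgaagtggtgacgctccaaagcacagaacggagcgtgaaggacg

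Plaur read -2.59 and -2.42 in untreated cultures. Levels at 6 h were -0.77, -1.69 and -3.57 at concentration 1, -2.33, -2.97 and -3.21 at 1/5, and -1.79, -2.69 and -3.30 at 1/25. At 24 h it lay between -3.73 and -2.59 (median -3.36). The 3 arrays of 6 h from day 1 (-1.79 to -0.77) stood above every other array, and those of day 2 (-3.57 to -2.33) overlapped the untreated and the 24 h arrays. Over the mean of the concentrations the difference between 24 h and 6 h was -0.73 ± 0.31 (limma adjusted p = 0.1001). Without concentration 1 for 6 h replicate 3 it was -0.99 (adjusted p = 0.00886), where 4509 of 27720 genes passed.

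Plaur fell from 6 h to 24 h in the fit with scan day as a block, with a difference of -1.91 ± 0.31, or 3.75 times (limma adjusted p = 0.00395), where 4.52% of all genes passed. At 1/25 the difference was -2.04 ± 0.42 (adjusted p = 0.0217), where 2.30% passed. At concentration 1 the difference was -1.49 ± 0.36 (adjusted p = 0.0549) and at 1/5 -2.20 ± 0.50 (adjusted p = 0.121), where 1.40% and 0.0360% passed. Within day 1 the differences were -1.68 ± 0.34 at concentration 1 (adjusted p = 0.0554, 2 arrays of 6 h) and -1.66 ± 0.43 at 1/25 (adjusted p = 0.0865, 1 array of 6 h). Against untreated, Plaur at 6 h differed by 0.49, -0.34 and -0.09 at 1, 1/5 and 1/25 without the block (limma adjusted p 0.686, 0.765 and 0.953) and by 1.08, 1.43 and 1.09 with it (adjusted p 0.0953, 0.148 and 0.111), so the sign turned at 1/5 and 1/25.

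**Figure D3:**
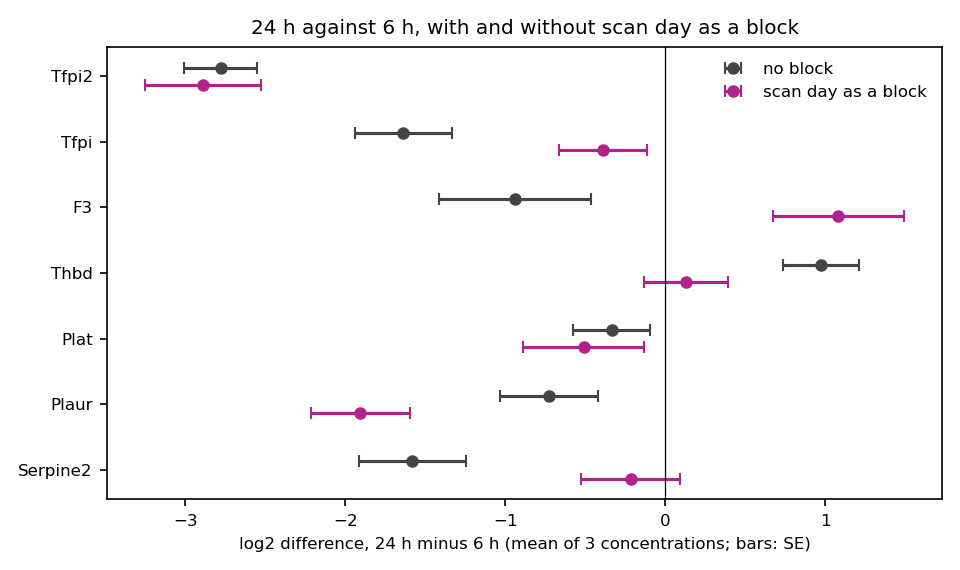
Log2 difference between 24 h and 6 h over the mean of the 3 concentrations (horizontal axis, bars are SE) for the 7 genes in the fit, without a block in grey and with scan day as a block in purple. Tfpi2 is at -2.78 and -2.89, Tfpi, Serpine2 and Thbd come closer to 0 with the block, Plaur moves from -0.73 to -1.91, and F3 changes sign.

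Counted over the 6 members other than Tfpi2 that entered the fit, 0 passed at concentration 1 for 6 h against untreated, 1 at 1/5 (Serpine2) and 0 at 1/25, where 0.429%, 6.55% and 5.99% of all genes passed. At 24 h against untreated 0 passed at each concentration, where 0.0649%, 0.285% and 0.288% of all genes did. Between 24 h and 6 h 0 passed at concentration 1, 2 at 1/5 (Tfpi and Serpine2), 0 at 1/25 and 3 over the mean (Tfpi, Serpine2 and Thbd), where 0.177%, 4.89%, 2.45% and 20.3% of all genes passed. With scan day as a block 0 passed at 6 h against untreated, where 8.21%, 1.14% and 11.6% of all genes did at 1, 1/5 and 1/25. By the brightest probe of each gene Plaur alone passed between the times, and probe 2 of Tfpi passed at concentration 1. No slide was scanned on both days, so scan day and slide cannot be told apart in the difference between the days. With the groups held constant, this difference (day 2 minus day 1) was 3.03 for F3, 2.05 for Serpine2 probe 1 and 1.88 for Tfpi probe 1. It was -1.27 for Thbd and -1.77 for Plaur, against -0.16 for Tfpi2, -0.27 for Plat, 0.28 for Tfpi probe 2 and 0.06 for Serpine2 probe 2. Across all probes this difference had a median of 1.86 in the 683 probes with up to 15 G or C bases and 0.56 in the 960 with 16 to 20, and lay between -0.25 and 0.15 in the classes above 20. Tfpi probe 1 is the only member probe with fewer than 21 such bases, and the part of base composition in these differences was not tested.

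The wider pathway was followed with a list of 61 further genes of fibrinolysis, coagulation and their inhibitors and receptors, of which 58 were on the array by name and 46 entered the fit. At 6 h against untreated 0 of the 46 rose and 1 fell at concentration 1, 1 rose and 3 fell at 1/5, and 1 rose and 2 fell at 1/25, where 0.429%, 6.55% and 5.99% of all genes passed. The list's median difference was -0.51, -0.34 and -0.49, beside -0.07, -0.19 and -0.18 over all genes. At 24 h none of the 46 passed at any concentration, with list medians of -0.19, -0.28 and -0.18 beside 0.00, -0.02 and -0.04. Over the mean difference between 24 h and 6 h 5 rose and 4 fell, where 20.3% of all genes passed, and the median was 0.09 beside 0.10. In the fit with the block 1 rose and 3 fell at concentration 1 for 6 h, none passed at 1/5, and 1 rose and 6 fell at 1/25, where 8.21%, 1.14% and 11.6% of all genes passed.

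Serpinf2, the plasma inhibitor of plasmin, was lower at 6 h than in untreated cultures. It read -3.03 and -2.87 untreated and -5.04 to -3.79 on the 9 arrays of 6 h, with no overlap, and -4.05 to -3.02 at 24 h. Serpinf2 fell at 6 h with differences of -1.63 ± 0.33 at concentration 1 (limma adjusted p = 0.0412) and -1.5 ± 0.33 at 1/25 (adjusted p = 0.0238), and of -1.57 and -1.39 with scan day as a block (adjusted p 0.0138 and 0.0306). At 1/5 it read -1.02 ± 0.33 (adjusted p = 0.0707), and -0.86 with the block (adjusted p = 0.275). Over the mean of the concentrations Serpinf2 was higher at 24 h than at 6 h by 0.69 ± 0.17 (adjusted p = 0.0104), where 20.3% of all genes passed. With the block this difference did not pass. Of the 3 arrays of 6 h from day 1, 1 was well above background for Serpinf2, as were all 6 of day 2.

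Vldlr, a receptor that takes up complexes of proteases with their inhibitors, read -2.17 and -1.18 untreated, -4.93 to -1.85 at 6 h and -2.18 to -0.78 at 24 h. Vldlr fell at 1/25 for 6 h against untreated (-2.15 ± 0.49, limma adjusted p = 0.0256) and rose from 6 h to 24 h at 1/25 (2.44 ± 0.44, adjusted p = 0.0117). In the fit with the block these were -1.90 and 2.19 (adjusted p 0.0444 and 0.0435), and the rise over the mean of the concentrations was 1.61 ± 0.25 (adjusted p = 0.000719) and 1.36 ± 0.40 with the block (adjusted p = 0.0628). Itgav, the integrin alpha V chain, read 0.00 and 0.80 untreated, 0.36 to 2.02 at 6 h and 0.56 to 1.12 at 24 h. Itgav fell from 6 h to 24 h, by a mean difference of -0.67 ± 0.20 (adjusted p = 0.0243) and of -1.04 ± 0.28 with the block (adjusted p = 0.0484). Against untreated at 6 h it passed with the block only. It was higher there by 1.43 ± 0.36 at concentration 1 and 1.33 ± 0.41 at 1/25 (adjusted p 0.0287 and 0.0479), where 8.21% and 11.6% of all genes passed.

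Spint2, a Kunitz-type inhibitor of the activator of hepatocyte growth factor, followed the scan day. It read -2.19 to -1.54 on the 6 arrays of day 2 and -5.27 to -3.23 on the 14 of day 1, and neither untreated array was well above background, so no fold against untreated is given. Its mean difference between 24 h and 6 h was -1.79 ± 0.33 (limma adjusted p = 0.00183), and -0.48 ± 0.31 with the block (adjusted p = 0.390). Serpinb9, an intracellular inhibitor of granzyme B, read -4.26 to -2.19 at 6 h and -3.38 to -1.34 at 24 h. Its mean difference between the times was 0.80 ± 0.21 (adjusted p = 0.0131), and 0.59 ± 0.32 with the block (adjusted p = 0.303). Plg, plasminogen itself, read between -6.58 and -2.42 and was well above background on 12 of the 20 arrays. F2r, a thrombin receptor, read between -4.52 and -2.51 on the arrays of day 1 and up to 0.74 on those of day 2. Plg and F2r passed in none of the comparisons (smallest adjusted p 0.481 and 0.139).

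The genes whose levels ran most like those of Tfpi2 were ranked among 11507 named genes by Pearson's r over the 20 arrays. The 5 with the highest r were Cflar (0.944), Afdn (0.925), Olr1 (0.924), Med21 (0.924) and Rmdn2 (0.919). Over the 14 arrays of day 1 alone their r was 0.950, 0.874, 0.916, 0.866 and 0.893. These values describe points that share groups, slides and scan days, and Tfpi2 itself was chosen for this pattern. Of the other members Tfpi had an r of 0.781 (0.617 on day 1), Serpine2 of 0.629 (-0.01), F3 of 0.401 (-0.43), Plaur of 0.393 (0.768), Plat of 0.263 (0.320) and Thbd of -0.56 (0.079).

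Cflar, an inhibitor of caspase 8, read -0.87 and -0.75 in untreated cultures, -0.44 to 0.35 at 6 h and -1.36 to -0.42 at 24 h. Olr1, a scavenger receptor for oxidised low-density lipoprotein, read -0.30 and 0.27, then 1.69 to 3.16 and then -0.03 to 1.21, with its probe saturated on 8 of the 20 arrays. Afdn, a protein of adherens junctions, read -0.02 and 0.53, then 0.93 to 1.38 and then -0.41 to 0.80. Med21, a Mediator subunit, read 0.70 and 0.80, then 1.25 to 2.14 and then 0.46 to 1.11. Rmdn2, which is linked to microtubules, read -3.22 and -2.15, then -1.85 to -0.73 and then -3.10 to -1.89. For Olr1, Afdn, Med21 and Rmdn2 all 6 h arrays lay above all others, while for Cflar the lowest array of 6 h (-0.44) lay just under the highest of 24 h (-0.42). The genes were picked for likeness to Tfpi2, which was chosen for being high at 6 h. Their separation is thus a description of the ranking and no result about them.

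**Figure D4:**
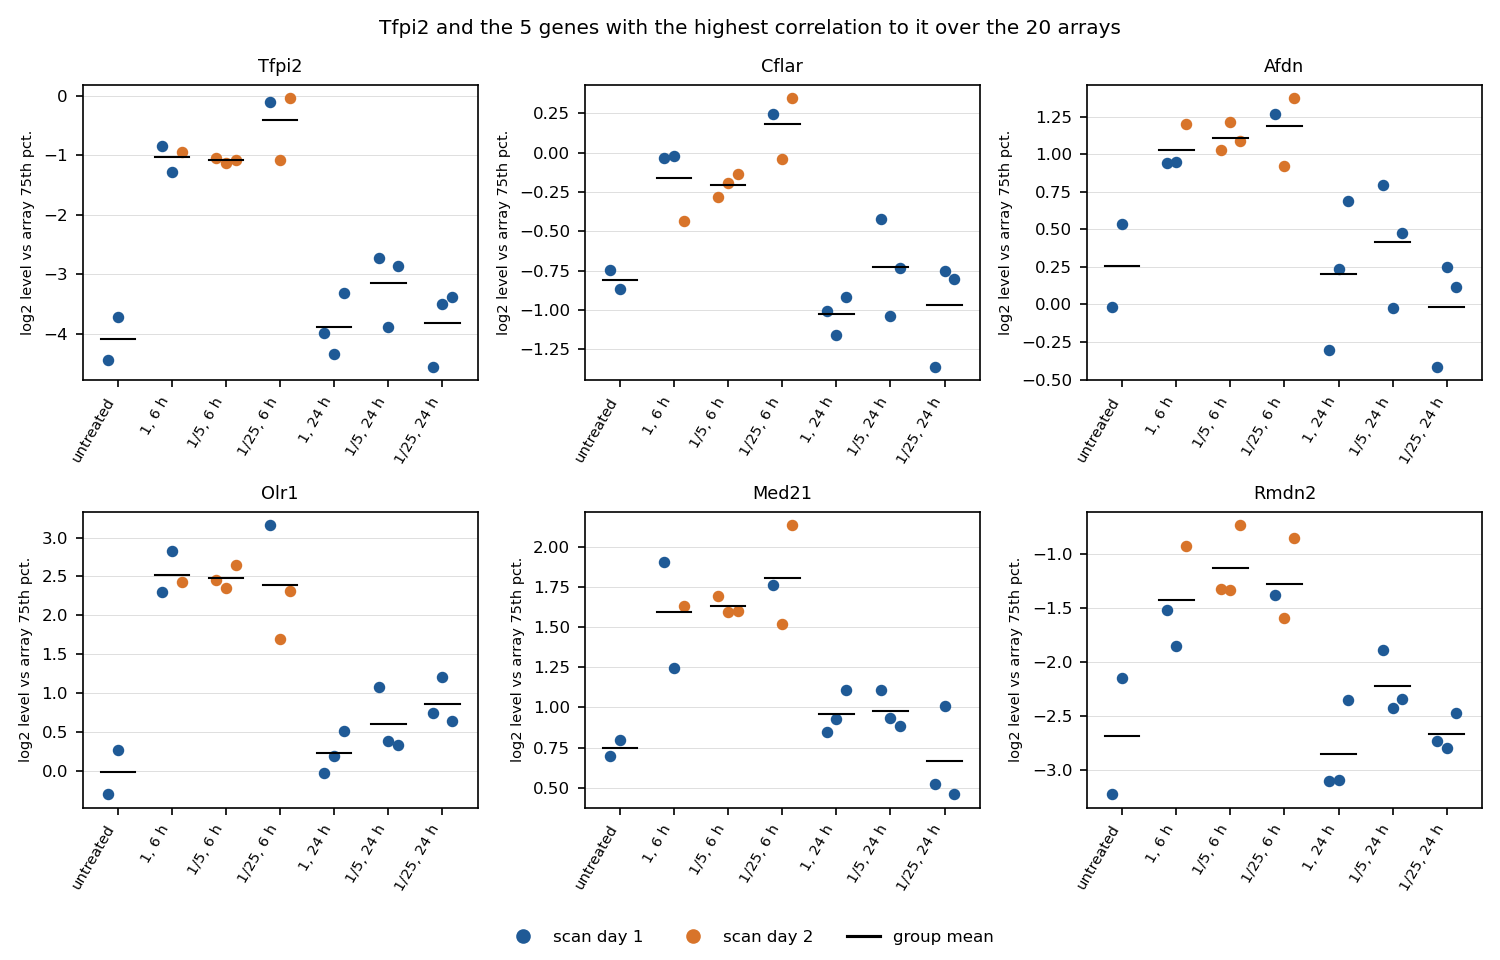
Level of Tfpi2 and of the 5 genes with the highest correlation to it (log2 relative to the array's 75th percentile, vertical axis) by group (horizontal axis) on all 20 arrays, with scan day 1 in blue, scan day 2 in orange and lines for group means. The 6 h arrays of both scan days are the high ones (for Olr1 at 1.69 to 3.16 against -0.30 to 1.21 elsewhere), with 1 Cflar array of 6 h at -0.44 just under the highest of 24 h.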

How the data were processed

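Per the file headers, the deposited scanner output gives spot intensity on a linear scale from Agilent Feature Extraction 9.5.3.1. The authors also deposited linear ratios, which followed the median-scaled scanner signals (correlation per array 0.994 to 0.999) and served as an alternative. Here, outlier spots were left out, log2 signals were centred on the array's 75th percentile and averaged over the spots of a probe. A probe stayed in (31739 of 41012) when all arrays of some group read it well above background. The brightest such probe stood for a gene. Names came from the files (20987 probes) and from RefSeq annotation.

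All 20 arrays were fitted with 7 group means in limma 3.58.1 (R 4.3.3, jsonlite 2.0.0, statmod 1.5.0 and version 1.17.8 of data.table), with Benjamini-Hochberg adjustment over all genes and a threshold of 0.05, in 12 comparisons. Tests are two-sided, and ± is the SE unless SD is written. Counts over members leave out Tfpi2 where it was chosen on the comparison. The members, the pathway and marker lists and the alternatives were chosen with earlier results of these data known. Named were all members, F2r and Plg, the 6 called pathway genes with the smallest adjusted p, and the 5 genes most like Tfpi2; 1 of the pathway genes is not reported here. The code was tested on simulated data. Alternatives covered background correction, scaling, filter, probe choice, scan day, slide, replicate number, the arrays fitted and each array left out.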

Additional observations from a re-analysis of the deposited data

Results flagged for a closer look

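Differences between the effect at 24 h and at 6 h that passed in limma drew attention for 3 members. Tfpi differed by -1.89 at 1/5 and by -1.64 over the mean of the concentrations. Serpine2 differed by -2.54 at 1/5 and by -1.58 over the mean. Thbd differed by 0.97 over the mean. None of these passed with scan day as a block. No group had the 4 or more arrays that a search for single outlying arrays needs. Untreated replicate 1 was the array least like the rest. Its highest correlation with another array was 0.922, the lowest in a range of 0.922 to 0.978 over all arrays. Its mean correlation was 0.887, against 0.934 for untreated replicate 2 and 0.888 for 1/25 for 6 h replicate 3. Every difference from untreated cultures given here rests on untreated replicates 1 and 2 alone.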

How the results depend on the processing

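The 3 rises of Tfpi2 at 6 h and its 4 differences between the times kept their direction under all alternatives, the rises between 2.46 and 4.27 and the differences between -4.32 and -1.71 on the log2 scale. Tfpi2 was chosen for this pattern on these same arrays, so the kept direction is a description and no test of it. Of the 6 other members fitted, 1 passed at 1/5 for 6 h against untreated, where 1817 of 27735 genes passed. In brackets below is the number of all genes that passed in the same setting. The count was 3 with normexp background (3385), quantile normalization (3511), median scaling (2027) or the authors' deposited ratios (2025). It was 2 in a fit of only the groups compared (3511). It was 0 without the filter (1743 of 35510) and with the mean of the kept probes (1671). As a block, scan day (317), slide (random 3, fixed 2) or replicate number (676) also gave 0. Without any 1 celecoxib array it was 0 (38 to 196). Leaving out an untreated array leaves 1 in that group, so no count is given. At concentration 1 for 6 h it was 0 (119), and 1 after quantile normalization (266). At 1/25 for 6 h it was 0 (1662), then 2 after quantile normalization (2235). It was 1 with normexp (2106), median scaling (2407) or the deposited ratios (2402). Without 1 celecoxib array it was 0 to 3. It was 3 without 1/25 for 6 h replicate 1 (3704) and 0 without replicate 2 (4621) or replicate 3 (117).

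Between the times at 1/5, 2 passed (1356 of 27740 genes, given in brackets for each setting as above). With only probes above background on all arrays, 3 of the 6 members could be tested. The count became 1 with that filter (2133 of 20197), median scaling (650), the deposited ratios (645) or no filter (432 of 35518). It became 3 with normexp (3063), and 4 in a fit of only the groups compared (8520). It was 0 with the mean of the kept probes (1190), scan day as a block (10), slide as a random block (8) or any 1 array left out (34 to 148). At 1/25 the count was 0 (681), then 2 with normexp (1054). It was 1 with only probes above background on all arrays (856 of 20197), scan day as a block (637) or the replicate block (789). Without 1 array it was 0 to 3 (3 without 1/25 for 6 h replicate 1, where 4265 genes passed). Over the mean 3 passed (5631), and 2 with only probes above background on all arrays (5084 of 20197). The count was 1 with the mean of the kept probes (5509) or scan day as a block (1254), and 0 under a random slide block (315). Without 1 array it was 3 to 4 (4 without concentration 1 for 6 h replicate 3, where 4509 genes passed).

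The second probe turned the sign. For Tfpi it gave 0.12 at 1/5 and 0.50 over the mean between the times, and 0.40 and 0.69 with scan day as a block as well. For Serpine2 it gave -1.55 at 1/5 for 6 h against untreated, 1.26 at 1/5 and 1.18 over the mean between the times, and -1.60, 1.31 and 1.22 with the block. The second probe with the block and the fit within day 2 were added after seeing the data.

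Arrays with the same replicate number did not deviate together (9 of 57 such pairs had a correlation above 0.1, beside 29 of 114 pairs with different numbers). Of the 20 arrays, 7 correlated best with their own number, and the numbers were not used as pairs. With the replicate block 676 genes passed at 1/5 for 6 h against untreated in place of 1817. Slide as a fixed block could be fitted in 4 comparisons only. Dim members (F3, Serpine2, Plat and Plau) are limited by background on some arrays, and 2 untreated arrays carry all comparisons with untreated cultures.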

Other observations

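Within the member probes, the pair for Serpine2 passed in opposite directions between the times (-1.58 and 1.18 on the log2 scale), with scan day as a block these were -0.22 and 1.22 and neither passed, and the files pair both probes with the same gene name. The part of the transcript each probe reads was not determined here.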
